A study of Homo sapiens with 8 samples.

Results

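Chromosome 4 was followed in 8 reduced representation bisulfite sequencing (RRBS) libraries of HUES64 human embryonic stem cells that lack DNMT3A and DNMT3B. RRBS reads the methylation of cytosines in CpG pairs in a CpG-rich sample of the genome. The libraries were made at passages 6, 7, 8, 11, 13, 17, 27 and 28, with 1 library at each, and every one of them carries the double knockout, so the trend runs over passages of knockout cells and no unedited cells are part of it. DNA methylation at these CpGs offers no defining marker by which to check the cell type. Whether the cells of later passages descend from those sampled earlier, and whether the line is 1 clone, is not stated in the labels. Nothing therefore shows the libraries to be separate cultures, and the p-values below measure scatter around a trend that may be technical. Neighbouring passages of 1 culture would not be independent. Chromosome 4 was divided into tiles of 1000 bases (build hg19), and a tile was used if it had at least 3 CpGs with 5 or more reads in every library. A short stretch of the long arm was left out by rule. This gave 4327 of 105631 autosomal tiles, with 28313 of the 124637 CpGs listed on the chromosome. The level of a tile is the share of methylated reads over its CpGs, and each tile had a median of 62 reads per library, against 65 in the other autosomes. Reads of tiles and promoter windows are summed over CpGs, so a read that covers several CpGs counts at each of them. Listed CpGs per file had a median coverage of 6 to 13 reads over the libraries. Chromosome 4 was chosen by its measured change between early and late passages, so its difference from the other autosomes is given as a description with no test.

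DNMT3A and DNMT3B place methyl groups on CpGs that carry none, while DNMT1 copies existing marks onto the new DNA strand at each cell division. Without the first pair, marks that DNMT1 fails to copy are not replaced and are diluted as cells divide. In human embryonic stem cells most CpGs between genes and in gene bodies are methylated, whereas CpG islands at gene starts are mostly free of methylation. Chromosome 4 is a large chromosome with few genes per length. Its short-arm end is rich in genes and CpGs, and its long-arm end carries D4Z4, a tandem array of near-identical CpG-rich units whose shortening is linked to facioscapulohumeral muscular dystrophy. A near-identical array lies at the end of the long arm of chromosome 10, so reads of the 2 arrays may have been placed on either.

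Promoter windows show the range of behaviours on the chromosome. They are RefSeq sequences (assembly GRCh38.p14) from 250 bases before to 50 after the gene start, and each was placed in the hg19 coordinates of the files by the spacing of its CpGs, as no hg19 annotation was used here. Capitals mark the CpGs that were kept for measurement, and all 4 sequences lie on the plus strand. FGFR3 (chr4:1794770-1795069), a fibroblast growth factor receptor gene, is shown as an unmethylated CpG island close to a tile that lost nearly all its methylation. LOC124900649 (chr4:2341245-2341544), a non-coding RNA, is shown as the promoter with the most negative difference between late and early passages. TRAPPC11 (chr4:184580196-184580495), which encodes a subunit of a membrane trafficking complex, is the promoter with the largest positive one. LINC02434 (chr4:189080957-189081256), a non-coding RNA of the distal long arm, stayed methylated. Its window repeats itself, since 85.2% of its bases are the same 50 bases further on.
FGFR3: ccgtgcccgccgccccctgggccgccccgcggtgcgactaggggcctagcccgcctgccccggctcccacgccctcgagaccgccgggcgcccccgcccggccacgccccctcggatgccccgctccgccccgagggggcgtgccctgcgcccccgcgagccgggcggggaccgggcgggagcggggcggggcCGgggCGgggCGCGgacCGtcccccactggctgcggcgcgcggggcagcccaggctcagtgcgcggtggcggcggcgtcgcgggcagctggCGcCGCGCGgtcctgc
LOC124900649: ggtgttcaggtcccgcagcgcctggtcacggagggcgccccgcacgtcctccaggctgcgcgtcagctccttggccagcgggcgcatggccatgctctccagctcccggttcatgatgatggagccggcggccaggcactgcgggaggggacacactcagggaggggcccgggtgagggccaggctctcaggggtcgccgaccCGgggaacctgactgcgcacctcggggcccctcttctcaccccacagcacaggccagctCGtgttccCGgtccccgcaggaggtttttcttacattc
TRAPPC11: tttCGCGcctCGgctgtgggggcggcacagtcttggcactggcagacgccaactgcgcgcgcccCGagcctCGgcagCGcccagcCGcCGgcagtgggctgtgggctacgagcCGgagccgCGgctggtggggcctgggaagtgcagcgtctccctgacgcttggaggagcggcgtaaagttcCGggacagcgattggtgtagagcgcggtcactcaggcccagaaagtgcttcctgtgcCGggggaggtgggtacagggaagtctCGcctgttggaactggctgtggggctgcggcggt
LINC02434: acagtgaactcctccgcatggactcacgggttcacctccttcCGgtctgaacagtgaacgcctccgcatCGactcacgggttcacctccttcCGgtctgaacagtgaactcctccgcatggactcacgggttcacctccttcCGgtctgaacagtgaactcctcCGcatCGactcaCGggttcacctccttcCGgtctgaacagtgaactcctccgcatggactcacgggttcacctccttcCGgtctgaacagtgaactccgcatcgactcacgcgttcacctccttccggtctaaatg

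The mean level of the 4327 tiles fell with passage. It was 55.5%, 55.5%, 55.0%, 53.1%, 52.8%, 51.5%, 46.7% and 45.8% in the order of passages 6, 7, 8, 11, 13, 17, 27 and 28. The mean of passages 27 and 28 was 46.3% (n = 2), against 55.3% ± 0.282 at passages 6 to 8 (SD, n = 3), a change of -9.05 percentage points, with no overlap between the 2 sets of libraries. The least-squares slope was -0.436 ± 0.0147 points per passage (SE, 8 libraries). In the other autosomes the level was 40.6% at passages 27 and 28 and 50.8% ± 0.327 at passages 6 to 8, a change of -10.3 points and a slope of -0.496 ± 0.0158. Chromosome 4 started higher, with 39.8% of its tiles at 80% or more, against 35.2% in the other autosomes.

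Without matching, chromosome 4 did not have the smallest loss. It held place 6 of the 22 autosomes, between chromosome 5 (change -8.75 points) and chromosome 12 (-9.08 points), while chromosomes 3, 15 and 6 lost least (-7.48, -7.60 and -7.85 points). Requiring 10 reads per CpG moved it to place 12. It had the smallest loss once tiles of like kind were compared. The other autosomes were weighted to the same start level, number of listed CpGs in the tile and distance to the chromosome end. The change was then -9.05 points on chromosome 4, against -10.5 in the others. The difference of 1.44 points put chromosome 4 at place 1, ahead of chromosome 3 (1.14), chromosome 18 (1.11) and chromosome 5 (0.919). Over 79 classes of tile, chromosome 4 minus the matched tiles was -0.0305, 0.0189, 0.0208, 0.329, 0.208, 0.685, 1.33 and 1.55 points in the order of passages 6, 7, 8, 11, 13, 17, 27 and 28, so the difference built up with passage. The first 3 passages lie near 0 by construction, since the start level was matched. Chromosome 4 fell to place 4 when start level alone, or start level and density, were matched, and to place 3 without the tiles under 5 Mb from an end on every autosome.

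**Figure D1:**
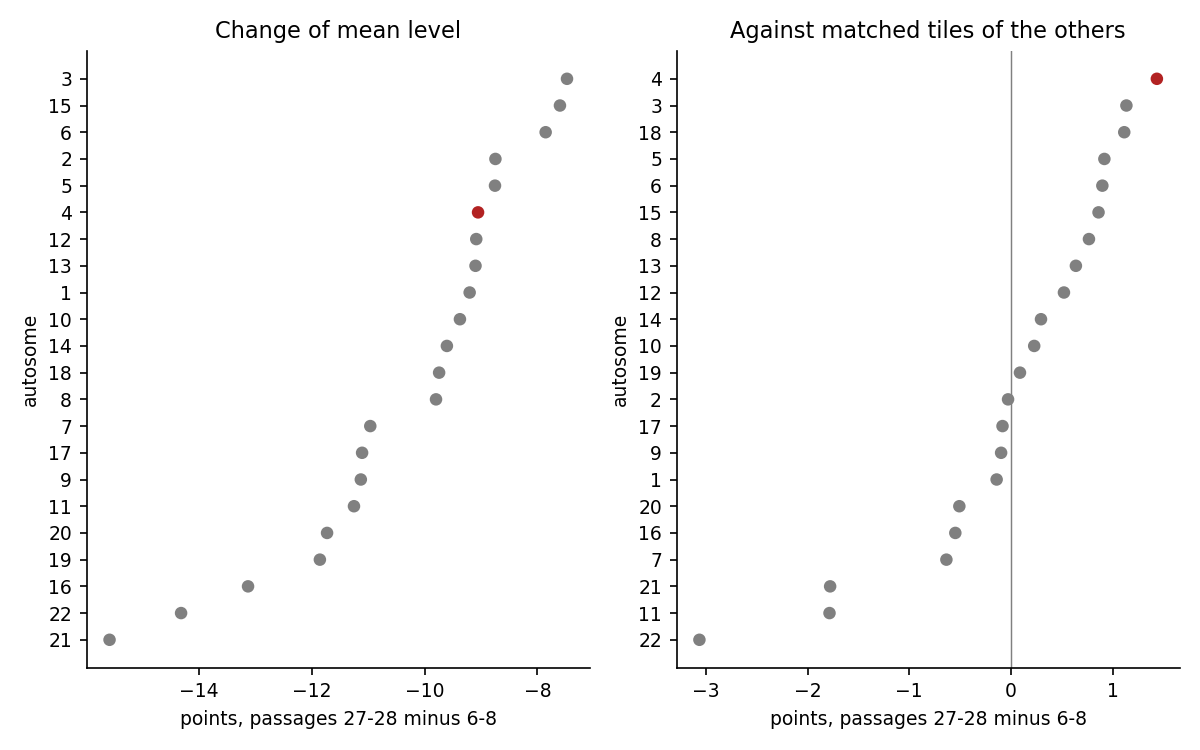
Each point is 1 of the 22 autosomes, chromosome 4 in red, sorted by value. On the left, the change of the mean tile level (passages 27 and 28 minus 6 to 8, percentage points) puts chromosome 4 at place 6 with -9.05, and on the right, that change minus the change of matched tiles of the other 21 autosomes puts it at place 1 with 1.44.

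The loss was uneven along the chromosome and concentrated at the short-arm end. The first 10 Mb held 1488 tiles, 34.4% of those measured, and 65.2% of the summed fall. Their mean level was 52.5%, 51.9%, 51.0%, 47.5%, 46.6%, 44.1%, 35.4% and 33.8% in the order of passages 6, 7, 8, 11, 13, 17, 27 and 28. That is 34.6% at passages 27 and 28 against 51.8% ± 0.773 at passages 6 to 8 (SD, n = 3), a change of -17.2 points. The 2839 tiles beyond the first 10 Mb stood at 52.4% at passages 27 and 28 and 57.2% ± 0.129 at passages 6 to 8, a change of -4.80 points. Their level was 57.1%, 55.4%, 52.7% and 52.1% in the order of passages 6, 17, 27 and 28. The slope of the first 10 Mb was -0.828 ± 0.0222 points per passage, against -0.231 ± 0.0124 beyond them.

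**Figure D2:**
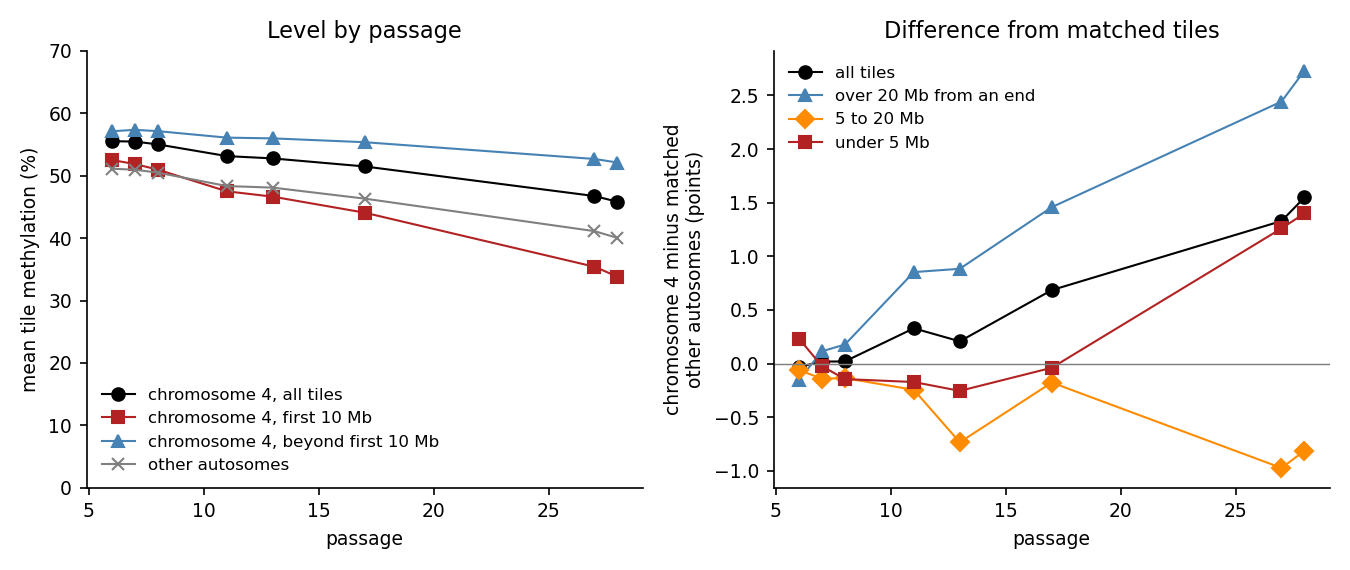
Left, mean tile methylation (%) against passage for chromosome 4, its first 10 Mb, the tiles beyond them, and the other autosomes, 1 library per point; the first 10 Mb end at 33.8% and the rest of chromosome 4 at 52.1%. Right, chromosome 4 minus tiles of the other autosomes matched on start level, density and distance class (percentage points); at passage 28 the tiles over 20 Mb from an end stand at 2.73 and those 5 to 20 Mb from an end at -0.813.

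Beyond the first, all 19 bands of 10 Mb lost little. Their changes ran from -3.34 points (110 to 120 Mb, 46.6% at passages 27 and 28 and 49.9% at passages 6 to 8) to -6.53 points (180 to 190 Mb, 53.0% and 59.6% in the same order). Other bands with small losses were 120 to 130 Mb (-3.65 points) and 170 to 180 Mb (-3.79 points), and 20 to 30 Mb was next to the largest at -6.48 points. Every one of the 19 lost less than tiles of the same start level and density elsewhere, by 3.08 to 10.8 points, whereas the first band lost more than such tiles, with a difference of -5.06 points. Distance to the chromosome end was not matched here. Against ends or interiors elsewhere, the difference was -1.48 points in the first 10 Mb, 2.84 in the interior and 8.93 in the last 10 Mb. With distance class matched, it was 1.31, -0.781 and 2.54 points under 5, at 5 to 20 and over 20 Mb from an end. Start levels of these 19 bands spanned 45.0 to 82.1%, so their small losses were not limited to bands with a low start. Within the first 10 Mb the loss varied from megabase to megabase. It was largest at 7 to 8 Mb (29.7% at passages 27 and 28, 53.7% at passages 6 to 8, 147 tiles) and at 3 to 4 Mb (23.9% and 46.3% in the same order, 176 tiles). It was smallest at 4 to 5 Mb (32.6% and 40.5%, 65 tiles) and 9 to 10 Mb (69.7% and 78.5%, 114 tiles). As a description, the change of the 19 bands of full length had a Pearson r of -0.942 with their number of listed CpGs, over bands that share the same 8 libraries. It rests on the first band, with -0.271 over the other 18.

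**Figure D3:**
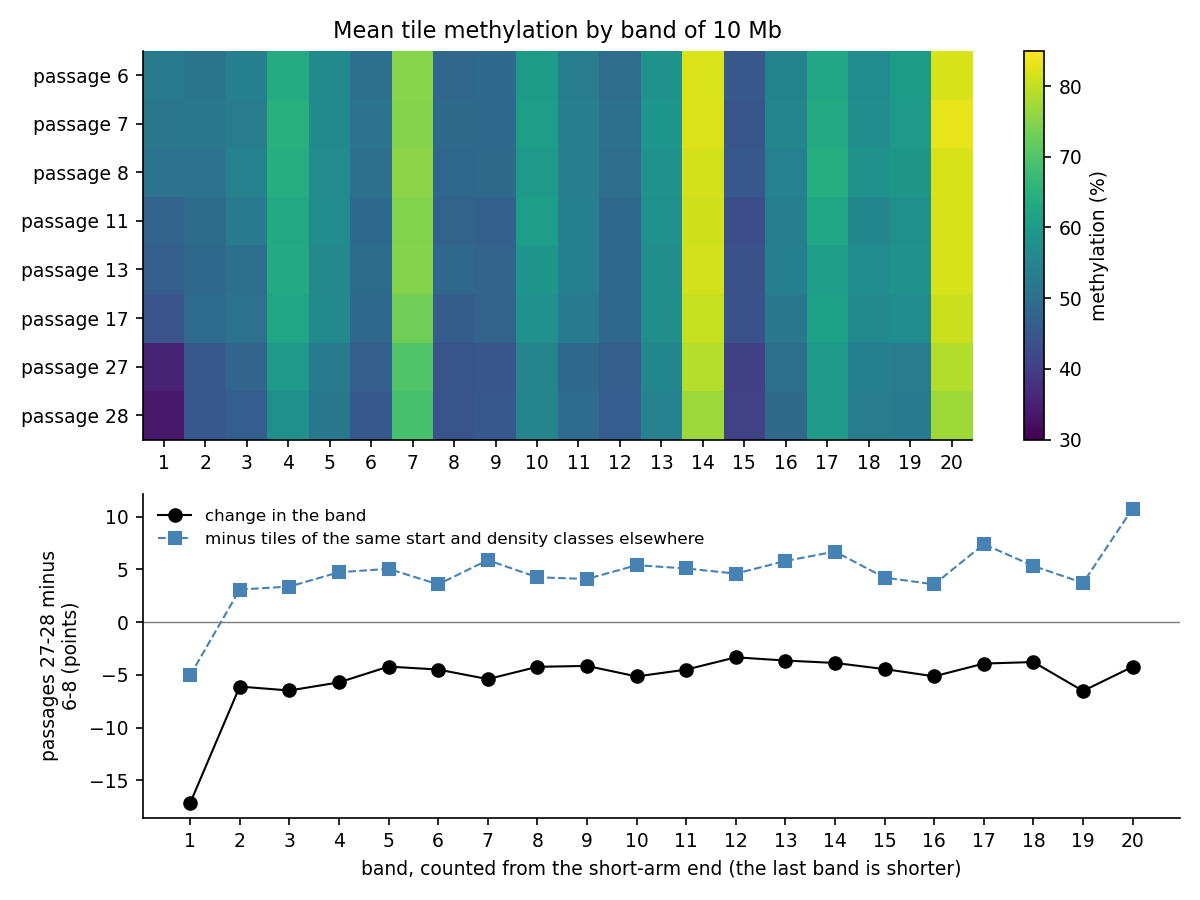
Top, mean tile methylation (colour, %) in each of 20 bands of 10 Mb (columns, counted from the short-arm end) at each passage (rows). Bottom, the change between passages 6 to 8 and 27 to 28 in percentage points (black) and that change minus the change of tiles of the same start level and density on other autosomes (blue); band 1 stands at -17.2 and -5.06, and the other 19 lie between -6.53 and -3.34 in black and are all above 0 in blue.

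The 2 ends of the chromosome parted, as they did on some other autosomes. On chromosome 9 the short-arm end of 10 Mb changed by -4.77 points and the long-arm end by -17.6. On chromosome 20 the changes were -6.77 and -17.9 points in the same order, whereas on chromosome 10 they were -14.8 and -15.9. The last 10 Mb of chromosome 4 (384 tiles) stood at 56.8% at passages 27 and 28 and 63.0% ± 0.358 at passages 6 to 8 (SD, n = 3), a change of -6.17 points. By loss this end held place 38 among 39 chromosome ends of 10 Mb, where place 1 lost most, and the short-arm end held place 9. The last 10 Mb were set against tiles under 10 Mb from an end elsewhere, weighted to the same start level and density, and changed by -6.17 points against -15.1 in those. The first 10 Mb changed by -17.2 points against -15.7 in tiles weighted to them. The interior of chromosome 4, over 10 Mb from both ends, changed by -4.59 points, against -7.43 in matched interiors.

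Differences within the chromosome were tested, as the choice of the chromosome does not fix them. Each was taken per library and its slope on passage tested by an exact two-sided permutation of the passages over all orders of the 8 libraries, adjusted over 8 tests. Holding start level the same puts the mean difference of passages 6 to 8 near 0 by construction. The p-values of those tests are not free of this matching. Without matching, the slope was -0.420 points per passage for tiles under 5 Mb from an end minus the rest. For the short arm minus the long arm it was -0.438 (adjusted p = 7.94e-05 for each, exact permutation). With start level and density held the same, the slope of tiles under 5 Mb from an end minus that of the rest was -0.331 points per passage (adjusted p = 7.94e-05, exact permutation). That difference was 0.312 points at passage 6 and -7.41 at passage 28. It mixes a short-arm end that fell with a long-arm end that fell little. The short arm (2120 tiles) minus the long arm (2207 tiles) gave -0.386 in the same classes (adjusted p = 7.94e-05, exact permutation). The levels in those classes were 39.5% on the short arm and 47.6% on the long arm at passages 27 and 28, and 53.2% on each at passages 6 to 8. Of the short-arm tiles, 1488 lie in the first 10 Mb, so the arm difference draws largely on that band. Without matching, the short-arm bands from 10 to 50 Mb changed by -6.48 to -4.22 points and the long arm by -4.61. Added after seeing the data, the first 10 Mb minus the last 10 Mb gave -0.469 in the same classes (adjusted p = 0.000364, exact permutation). These 2 stretches were picked with their changes known, which the adjustment does not cover, so this p-value is no independent support. The last 10 Mb minus the interior gave -0.0227 (adjusted p = 0.147, exact permutation), which did not pass. It did pass without the 1% of tiles with the most reads (-0.0559, unadjusted exact permutation p = 0.0117) and without the long CpG-dense runs described below (-0.0495, unadjusted exact permutation p = 0.0198).

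The share of the level that remained grew with the start level above 20%. Tiles starting at 90 to 100% kept 93.1% of their level on chromosome 4, against 91.8% in the other autosomes. Those at 80 to 90% kept 87.5% on chromosome 4 and 84.3% in the others, and those at 60 to 80% kept 79.1% and 75.1% in the same order. Below that, tiles at 40 to 60% kept 52.0% against 51.2%, and tiles at 20 to 40% kept 40.5% against 38.9%. In the 2 lowest classes chromosome 4 kept less, with 34.2% against 36.0% at 10 to 20% and 46.4% against 48.3% under 10%. With 10 reads per CpG, chromosome 4 tiles at 40 to 60% kept 28.5% and those at 60 to 80% kept 63.0%. A start of 80% or more was seen in 1723 chromosome 4 tiles, and 1108 of them (64.3%) held that level at passages 27 and 28, against 57.1% in the other autosomes, and 14 ended under 20%. The share was 48.4% of 473 such tiles in the first 10 Mb and 70.3% of 1250 beyond them. On chromosome 4 the level of tiles starting at 90% or more minus that of tiles at 60 to 80% gained 0.423 points per passage (adjusted p = 7.94e-05, exact permutation). The start level was taken from passages 6 to 8, which are part of this fit.

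Chromosome 4 tiles lay in CpG-poor surroundings. The median number of listed CpGs within 500 kb on either side was 1007 on chromosome 4 and 1916 in the other autosomes, with 3628 in the first 10 Mb of chromosome 4 and 691 beyond them. Where fewer than 500 were listed, chromosome 4 tiles changed by -4.96 points and those of the other autosomes by -5.26. From 500 up to 1000 the changes were -4.49 on chromosome 4 and -5.89 in the others, and from 1000 up to 2000 they were -6.13 and -8.55 in the same order. From 2000 up to 4000 chromosome 4 lost more, at -16.4 points against -11.4, and with 4000 or more at -18.8 against -16.7. Matched on start level, density and distance within each class, chromosome 4 minus the others was 0.317, 0.724, 2.81, -1.18 and -0.65 points from the poorest class to the richest, so the gaps in the 2 richest classes were smaller than without matching. Adding this measure to the matching, a choice made after seeing the data, reduced the difference from the other autosomes to 0.447 points, at place 4 of 22. How far the CpG content of the surroundings accounts for the place of chromosome 4 was not tested.

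**Figure D4:**
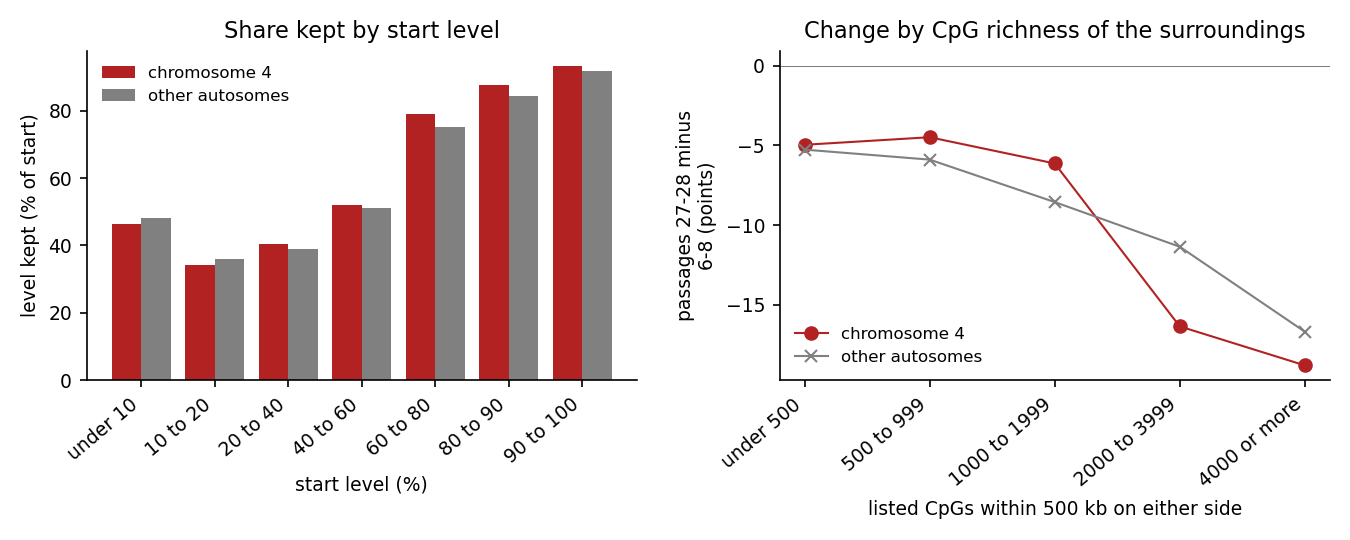
Left, the share of the start level kept at passages 27 and 28 (%) by start level, for chromosome 4 (red) and the other autosomes (grey). Right, the change in percentage points by the number of listed CpGs within 500 kb; chromosome 4 (red) lies between -6.13 and -4.49 in the 3 poorer classes and at -16.4 and -18.8 in the 2 richer ones, where the other autosomes (grey) lie at -11.4 and -16.7.

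The change was smallest in the most CpG-dense tiles. Chromosome 4 tiles with 3 to 9 listed CpGs changed by -10.4 points, those with 10 to 19 by -10.8, those with 20 to 34 by -6.30 and those with 35 or more by -1.61. The last class started at a mean of 17.0%, against 67.4% for tiles with 3 to 9. Among tiles starting at 80% or more, those with 20 or more listed CpGs stood at 85.5% at passages 27 and 28 and 91.6% at passages 6 to 8 (222 tiles). Those with 3 to 9 stood at 80.4% and 89.5% in the same order (1011 tiles). The difference gained 0.143 points per passage (adjusted p = 0.0011, exact permutation). The call did not hold in some subsets of tiles. Leaving out 2 long runs of CpG-dense tiles, described next, gave 0.066 (unadjusted exact permutation p = 0.0917), and at least 5 CpGs per tile gave 0.0724 (unadjusted exact permutation p = 0.125).

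The 2 runs are stretches of at least 10 tiles, each with 15 or more listed CpGs and a start of 60% or more, a rule made after seeing the data. One lies at the end of the long arm, at chr4:190986001-191015000, with 29 tiles and 1814 listed CpGs. Its level was 83.7% at passages 27 and 28 and 86.2% ± 0.303 at passages 6 to 8 (SD, n = 3), with none of its 29 tiles called as a loss. Its listed CpGs recurred at a spacing of 3293 bases, at which 40.3% had a partner, while 6.26% of the positions are listed CpGs. The run has the place and the unit length known for D4Z4. The run at chr10:135478001-135499000 had a spacing of 3310 bases and stood at 83.3% at passages 27 and 28 and 85.5% at passages 6 to 8, so the 2 arrays had like levels, and how far they share reads was not tested. The other run on chromosome 4 lies in the interior, at chr4:132644001-132686000, with 36 tiles. It stood at 92.6% at passages 27 and 28 and 93.3% ± 0.235 at passages 6 to 8, with none of 35 tested tiles called. Among the 13 runs on all autosomes it lost least, with a change of -0.751 points. Its best spacing, searched from 300 to 5000 bases, was 4955 bases, with partners for 24.9%. CpG-dense tiles were not kept everywhere. The run on chromosome 21 at 47409001 to 47431000 stood at 10.7% at passages 27 and 28 and 77.5% at passages 6 to 8, and only 5.64% of its listed CpGs had a partner at its best spacing.

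**Figure D5:**
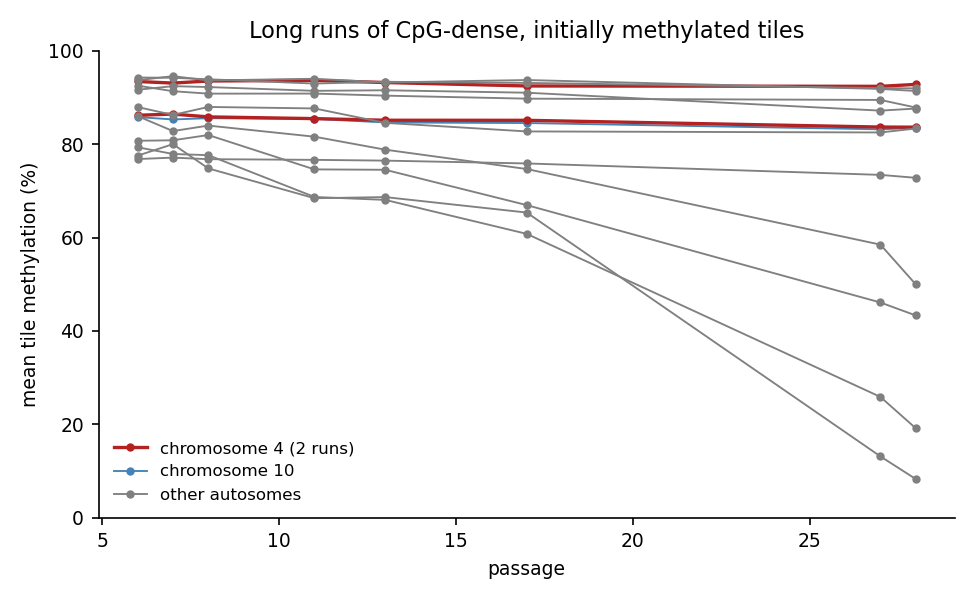
Mean tile methylation (%) against passage in the 13 long runs of CpG-dense tiles that started methylated. The 2 runs of chromosome 4 (red) end at passages 27 and 28 at 92.6 and 83.7%, the run at the end of chromosome 10 (blue) at 83.3%, and the lowest of the others (grey) at 10.7%.

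Single tiles were tested by quasi-binomial regression of reads on passage over all autosomal tiles, with limma's moderated dispersion and Benjamini-Hochberg adjustment. A call needed an adjusted p under 0.05 and a fitted change of 10 points between passages 6 and 28. On chromosome 4, 897 of 3257 tested tiles were called as losses (27.5%), where the share over all autosomal tiles was 34%, and 9 were called as gains (0.276%), against 0.167% over all. The other 1070 tiles had too few reads of one state to be tested. In the first 10 Mb 661 of 1217 tested tiles were called as losses (54.3%), against 236 of 2040 beyond them (11.6%). The called losses had a median change of -29.1 points.

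The 5 largest falls among called tiles with at least 5 CpGs all lay in the first 10 Mb. Genes named beside single tiles, here and below, are the nearest among the 332 promoter windows that could be placed. Genes whose windows were not placed may lie nearer. The tile chr4:3424001-3425000, between the promoters of RGS12 and DOK7, stood at 80%, 85.4%, 74.2%, 55.6%, 60.9%, 25.9%, 0% and 1.37% in the order of passages 6, 7, 8, 11, 13, 17, 27 and 28. It had lost much of its level by passage 17, with rises at passages 7 and 13. It was nearly bare at the end, with 1 methylated read of 140 at passages 27 and 28 (Wilson interval 0.126 to 3.93%). The fit put its change at -82.0 points (adjusted p = 1.34e-07 with limma moderating the dispersion). The tile chr4:3643001-3644000, between DOK7 and ADRA2C, stayed high until late, at 94.8%, 86.8%, 71.0%, 20.6% and 5.08% in the order of passages 11, 13, 17, 27 and 28. DOK7 encodes an adaptor of the neuromuscular junction and ADRA2C an adrenergic receptor. The tile chr4:1807001-1808000, 12.5 kb beyond the FGFR3 start shown above, stood at 6.18% at passages 27 and 28 and 78.2% ± 1.14 at passages 6 to 8 (SD, n = 3). The FGFR3 promoter itself had no methylated read in any library. The tile chr4:2065001-2066000, 4.45 kb beyond the start of NAT8L, which makes N-acetylaspartate in neurons, had 73.1% at passage 17, 11.5% at passage 27 and then 9.79% by passage 28. The tile chr4:3434001-3435000 stood at 7.47% at passages 27 and 28 and 80.7% at passages 6 to 8. Over passages 6 to 17 alone the tiles at 3643001 and 2065001 lost their calls, and the other 3 kept theirs.

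Of the 9 called gains, 6 lay in the first 10 Mb, among them the 5 with the largest difference between the mean of passages 27 and 28 and that of passages 6 to 8. The first 10 Mb held 1217 of the 3257 tested tiles, and over all autosomal tiles 0.167% were called as gains. So few calls give no result about their place. The neighbouring tiles chr4:8965001-8966000 and chr4:8966001-8967000 lie 91.9 and 92.9 kb from the promoter of HMX1, a homeobox gene. The first stood at 19%, 34.2%, 42.4%, 20%, 23.1%, 32.1%, 72.1% and 67.5% in the order of passages 6, 7, 8, 11, 13, 17, 27 and 28. The level was high in the last 2 libraries only, above every earlier one, and the fit put the change at 45.6 points (adjusted p = 0.000347 with limma moderating the dispersion). The second stood at 0.685% at passage 17, 59.7% at passage 27 and then 38.0% by passage 28. Another pair, chr4:6310001-6311000 and chr4:6311001-6312000, lies 38.9 and 39.9 kb from the start of WFS1, which encodes wolframin of the endoplasmic reticulum. These tiles stood at 80.5 and 83.5% at passages 27 and 28 and at 57.8 and 49.8% at passages 6 to 8. The fifth, chr4:4144001-4145000, stood at 37.9% at passages 27 and 28 and 16.6% at passages 6 to 8. None of these 5 was called over passages 6 to 17 alone. Without passage 27, the tile at 8965001 alone kept its call, and without passage 28 those at 6311001, 6310001 and 4144001 lost theirs. With limma on logit levels the tile at 8965001 was again the only 1 of the 5 to keep its call. The tile at 6310001 also lost its call without passage 6, 7 or 8, and that at 4144001 without passage 7 and with no minimum of reads of each state.

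The best kept tiles, chosen for a high level at passages 27 and 28, lay outside the first 10 Mb, as did 1250 of the 1723 tiles starting at 80% or more. Those at 39951001, 137516001, 183081001 and 189860001 had no unmethylated read at passages 27 and 28, among 114, 138, 141 and 135 reads, with lower Wilson bounds of 96.7, 97.3, 97.3 and 97.2%. The tile at 189860001 had none in any of the 8 libraries. The fifth, chr4:79469001-79470000, lies 3.42 kb from the promoter of ANXA3, an annexin gene, and had 1 unmethylated read of 129. Among tiles with 35 or more listed CpGs that started at 60% or more, 83 in all, the 8 with the most CpGs went both ways. The tile chr4:107001-108000, near the end of the short arm, stood at 68.5% at passage 17, 8.71% at passage 27 and then 2.85% by passage 28. The tile chr4:752001-753000 changed by -11.7 points, with a call that was lost without passage 28, and chr4:716001-717000, with 100 listed CpGs, stood at 98.2% at passages 27 and 28 and 96.5% at passages 6 to 8. The other 5 lay 81.5 to 150.5 kb beyond the FRG1 start near the end of the long arm, with differences of -3.27 to -1.37 points and none called.

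Most measured gene starts had almost no methylation at any passage. Of 1677 RefSeq promoter windows on the chromosome, 889 had the 8 CpGs needed for placing, and 332 were placed. Of the placed windows, 250 (225 genes) reached measured tiles and had at least 3 kept CpGs. Of these 250 windows, 241 (96.4%) were under 5% at passages 6 to 8. The 332 placed windows have kept CpGs in 275 tiles, of which the 250 windows reach 238. These 275 tiles stood at 2.79% at passages 27 and 28 and 3.10% at passages 6 to 8. The 4052 other tiles stood at 49.2% and 58.9% in the same order. The placing needs many listed CpGs, so it favours CpG islands. Of 15 listed developmental genes, 5 were measured. NKX1-1, FGFR3, HMX1 and FGF2 had no methylated read in any library, and MSX1, a homeobox gene, reached at most 1.75%. In their shallowest libraries these windows had 37 (FGF2) to 91 (HMX1) reads, summed over their CpGs. A count of 0 then allows up to 8.11% and 3.30% by counting error alone, if all counts are independent. This upper limit is 3 divided by the number of reads, at about 95% confidence. Neighbouring CpGs can share reads, and the limits are then higher. Of 9 genes listed as housekeeping UCHL1 alone was measured, with no methylated read. It encodes a deubiquitinase known mainly from neurons, so its value does not stand for housekeeping promoters.

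Only 8 windows of 7 genes started at 10% or more. The window of LOC124900649 printed above stood at 19%, 12.1%, 21.9%, 10.3%, 2.04%, 9.68%, 0% and 0% over the 8 passages in order, so both late libraries lay below all the others. It has only 3 kept CpGs and 31 reads in its shallowest library, where a count of 0 allows up to 9.68% by the limit given above. It allows more where its CpGs share reads. LOC101927636, a non-coding RNA, stood at 10.9% at passages 27 and 28 and 22.2% ± 5.87 at passages 6 to 8 (SD, n = 3), but its libraries overlapped, with 0% at passage 27 and 21.7% at passage 28. The repetitive window of LINC02434 stood at 91.0% at passages 27 and 28 and 89.5% ± 2.93 at passages 6 to 8. The 2 windows of LOC101927209 share their CpGs and stood at 90.5% and 91.0% in the same order. ADAD1, a gene of the testis, stood at 92.1% and 97.7% over only 3 CpGs. FRG1, near D4Z4, stood at 30.2% and 32.4%, and its divergent transcript FRG1-DT at 10.8% and 15.6%. Their windows overlap and share most of the kept CpGs of FRG1-DT, so the gap between them rests on few CpGs. FRG1 has close copies elsewhere in the genome, so these reads are uncertain. In 1 window the late level was over 5 points above the early one, a gene named after its values were seen. TRAPPC11 stood at 9.28%, 4.20%, 1.65%, 11.1%, 24.3%, 10.3%, 17.9% and 20.9% in the order of passages 6, 7, 8, 11, 13, 17, 27 and 28. The level of the last 2 libraries, 19.4%, was above all 3 of passages 6 to 8 at 5.04% ± 3.88 (SD, n = 3), but passage 13 was higher still. The tile that holds it was not called, its change being put at 5.71 points by the fit (adjusted p = 0.146 with limma moderating the dispersion), while the tile of LOC124900649 was called as a loss at -21.9 points (adjusted p = 0.000181 in the same fit).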

How the data were processed

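RRBS was measured in 8 libraries of double-knockout HUES64 cells, 1 per passage. The deposited files list CpG positions of hg19, per the submitters' processing notes. The authors' deposited counts of methylated and total reads stand together in the fourth column, which was used; the fifth column holds a deposited score, that share scaled to 1000, left unused. Which aligner and methylation caller were run, and whether duplicates were removed, is not stated in the labels. Read counts summed over the listed CpGs of a file ran from 19898423 to 44599588, where a read counts at each CpG it covers. Counting intervals (95%, Wilson) cover counting error only. They treat all counts as independent, so they are too narrow where CpGs share reads. The limits given for promoter windows without methylated reads are not Wilson bounds.

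Tile levels were averaged with equal weight. Matching weighted tiles of the other autosomes to the number of chromosome 4 tiles in each joint class of start level (7 classes), listed CpGs (4) and distance to the nearest end (under 5, 5 to 20 and over 20 Mb). Calls came from quasi-binomial logistic regression on passage, with limma 3.58.1 (R 4.3.3) moderating the dispersion at a floor of 1, in tiles with 10 reads of each state, after the code was tested on simulated data. Differences within the chromosome were tested with the correlation of the difference with passage, permuted exactly. Other steps used Python 3.11.15, numpy 2.4.6, pandas 2.3.3 and scipy 1.17.1. Promoter windows were placed by at least 8 matching CpGs, no listed CpG unmatched, and 2 more matches than the next best place. Named tiles are the 5 largest called falls and up to 5 rises, the 5 best kept (at least 5 CpGs for falls and best kept), and the 8 with the most listed CpGs among those with 35 or more that started at 60% or more. The members, lists and rules were chosen with earlier results of these data known. Alternatives were other read and CpG minimums, other matching, omission of single libraries and another scale of passage.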

Additional observations from a re-analysis of the deposited data

How the results depend on the processing

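Differences of slopes by end, arm and start level kept their direction and stayed past the threshold under every alternative run. With 10 reads per CpG the slope of chromosome 4 was -0.418, its unmatched difference from the other autosomes 0.358 points (place 12) and the matched difference 1.74. With at least 5 CpGs per tile the slope was -0.375, the place 9 and the slope difference by density 0.0724. Without the 1% of tiles with the most reads the matched difference was 1.30, the unmatched place 7 and the last 10 Mb minus the interior -0.0559. With each CpG weighing the same the differences were 0.955 unmatched (place 9) and 1.75 matched. Matching on start level alone, or on start level and density, gave place 4. Without tiles under 5 Mb from an end the unmatched difference was 1.36 (place 4) and the matched place 3. Added after seeing the data, matching also on listed CpGs within 500 kb gave 0.447 and place 4. Without the first 10 Mb of chromosome 4, also added, the slope was -0.231 and the differences 5.48 unmatched (place 1) and 3.45 matched. That band has the largest loss of the chromosome and was left out on chromosome 4 only, so a smaller loss follows from its removal. Without the long CpG-dense runs, also added, the differences were 1.11 unmatched (place 8) and 1.29 matched. The slope difference by density was then 0.066 and the last 10 Mb minus the interior -0.0495, which then passed. On log2 of passage the slope was -4.35 points per doubling.

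On omission of single libraries the slope was -0.442 to -0.420, the unmatched difference 1.14 to 1.31 (place 6 to 8), the matched difference 1.33 to 1.55 (place 1 throughout), losses 677 (without passage 28) to 913 and gains 5 (without passage 27) to 11. Losses numbered 274 over passages 6 to 17 (8.67% of those tested on chromosome 4, 10.5% over all autosomal tiles), 201 with 10 reads per CpG (39.0%, 47.6% over all), 439 with at least 5 CpGs (33.5%, 39.9% over all) and 657 with limma on logit levels (15.2%, 18.0% over all), so the share called on chromosome 4 was below that over all tiles in each. Gains numbered 5 at a fitted change of 20 points, 1 with 10 reads per CpG and 5 with at least 5 CpGs. Higher minimums of reads or CpGs lowered the number of tiles tested and the counts of calls, and raised the share called as losses. The cause of these and the other changes was not tested. Libraries could not be paired by passage because no 2 libraries share a passage. Differences between sets of tiles were taken within each library. Depth limits single tiles most, and 1 library per passage leaves no replicate error at any passage.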
